A study of Mus musculus with 6 samples.

Results

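A set of 31 imprinted genes was followed in C2C12 cells, a mouse myoblast line, with and without an intact Gmppb gene. The genes were taken by symbol from the deposited count table, which holds 54532 rows with a gene name, and they fall in 18 clusters on 11 chromosomes. Of the 31, 22 are known to be expressed from the paternal allele and 9 from the maternal allele, in at least some mouse tissues. The list was drawn up with the knockout and wild-type values known, so the values of its members are a description and carry no test. The counts do not separate the parental alleles, so the allele given for a gene is background from mouse genetics and was not measured.

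The control group was 3 libraries of wild-type C2C12 cells with no treatment. The other group was 3 libraries of Gmppb-KO C2C12 cells, which had been transfected with CRISPR plasmids holding guides to exons 1 and 5 of Gmppb, selected in puromycin at 4 µg/ml and expanded from single cells, per the labels. Gmppb makes GDP-mannose, the mannose donor for protein glycosylation, and the stated purpose of the series was to learn how it influences muscle development. Cells of both groups had 2 days in culture. The number of knockout clones is not in the labels, which also do not present the replicates as separate cultures, so an SD or a p-value covers no more than the variation among these 6 libraries, part or all of which may be technical. A clonal difference and an effect of the knockout cannot be told apart in this design.

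Genomic imprinting is the expression of a gene mainly from the copy inherited from one parent. It is set by DNA methylation that is laid down in the egg or in the sperm at a control region, kept through cell division by Dnmt1 and Uhrf1 with Zfp57, Zfp445 and Trim28, and read out by neighbouring genes as a cluster. Most control regions are methylated on the maternal copy, and the genes beside them, such as Peg3 and Snrpn, are then transcribed from the paternal copy. Some members, among them H19, Dlk1 and Mest, are known for high levels in fetal muscle and for lower levels after birth.

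Each library held between 16011021 and 18566759 counts in named genes, so that 3 counts, the limit that a count of 0 allows, came to between 0.141 and 0.168 CPM (counts scaled by library size, the unit of edgeR) in the Gmppb-KO libraries. These limits, and the intervals of pooled counts below, cover counting error only. Markers of the labelled cell type were present in wild-type cells, where Myod1, the myogenic master factor, was at 160, 163 and 152 CPM. Myod1 was at 0.326, 0.560 and 0.471 CPM in the Gmppb-KO libraries, where Des, the muscle intermediate filament gene, had a mean of 3166 CPM. Of 8 myoblast markers, all tested, 5 (Myod1, Myog, Mymk, Chrna1 and Pax7) were lower in Gmppb-KO at an adjusted p under 0.05 by edgeR's quasi-likelihood test. The summed level of all 8 markers, Des included, ranged from 4390 to 6110 CPM in wild-type and from 2480 to 4400 CPM in Gmppb-KO. Myf5, another myogenic factor of the list, had a log2 fold change of 1.32 ± 0.46 (SE), with overlapping groups, and was not called. The other 7 markers had log2 fold changes below 0, and Des and Cdh15 among them were not called. Of 5 fibroblast markers 4 were tested and 2, Col1a1 and Dcn, were called higher, and the summed level ranged from 474 to 829 CPM in wild-type and from 1960 to 3040 CPM in Gmppb-KO, with Lum at 0 in all 6 libraries and Pdgfra, not called, at a log2 fold change of -0.65 ± 0.50 (SE). Of 5 adipocyte markers 3 were tested and 2, Lpl and Fabp4, were called higher, with summed levels of 17.4 to 18.4 CPM and 37.7 to 76.2 CPM and Adipoq and Plin1 at 0. Neural markers summed to at most 1.62 CPM in any library, with Snap25 and Sox10 at 0, leukocyte markers to at most 5.46, endothelial to at most 0.659 and epithelial to at most 1.58 CPM. The part of these marker shifts in the values below was not tested. In bulk RNA, fewer cells of a type and less RNA per cell cannot be told apart.

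Over all named genes, 12786 passed the filter on low counts and were tested. At an adjusted p under 0.05 by edgeR, 3.27% of them were lower and 2.32% were higher in Gmppb-KO. An unadjusted p under 0.05 by edgeR was found for 2572 of the 12786. Of the 31 members, 23 had a count in at least 1 library and 17 were tested. Of these 17, 5 were called lower and 0 higher. DESeq2 called 7 members lower, with 4.84% of all its tested genes lower and 3.33% higher, and limma voom called 5, with 3.28% lower and 2.24% higher. Since the list was chosen on this contrast, nothing is read from these counts. All 5 are paternally expressed, lie on chromosome 7 in the Peg3 and Prader-Willi/Angelman domains, and had 0 counts in every Gmppb-KO library.

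**Figure D1:**
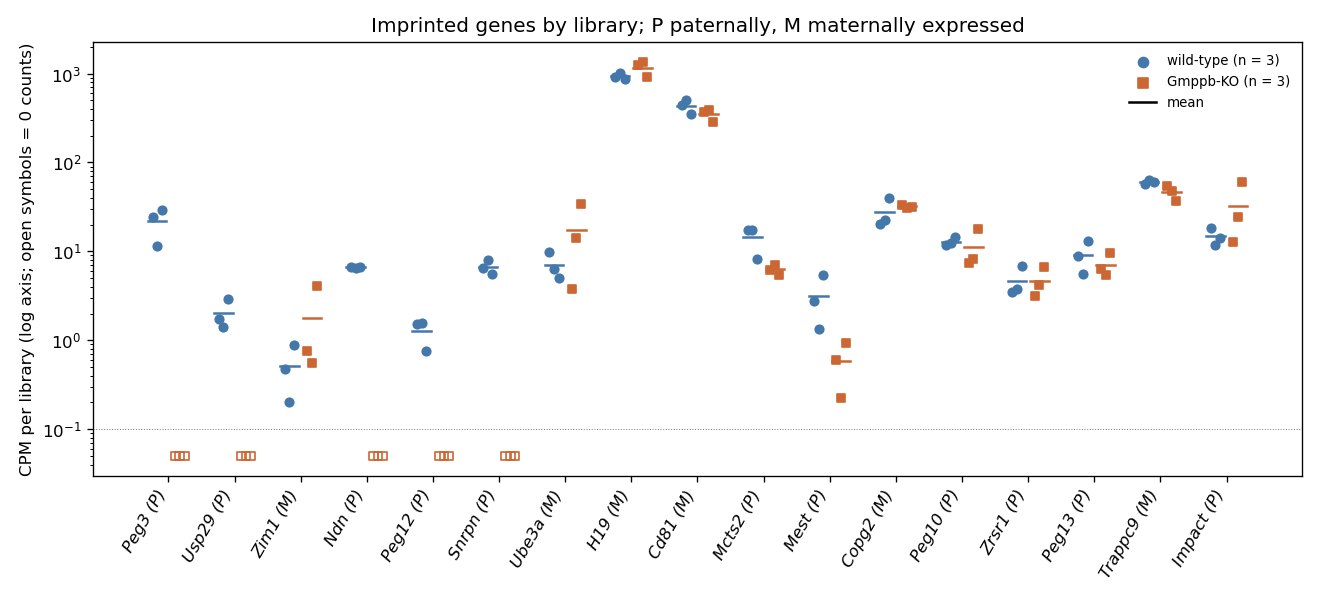
Levels in CPM (log axis) of the 17 tested imprinted genes in each of 3 wild-type and 3 Gmppb-KO libraries, with lines at the mean and open symbols, drawn below the dotted line, for libraries with 0 counts. Peg3, Usp29, Ndn, Peg12 and Snrpn have open symbols in all 3 Gmppb-KO libraries. The maternally expressed genes and the other 6 paternally expressed ones have counts in every library.

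The Peg3 domain lies near the start of chromosome 7 and has a control region that is methylated in the egg. In wild-type cells Peg3 and Usp29, which are transcribed in opposite directions from either side of that region, were both detected. In Gmppb-KO cells neither gave a single count, while the maternally expressed Zim1, next to Peg3, was detected in all 6 libraries.

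RefSeq promoter windows, which span 250 bases before to 50 bases after a start site, place the starts of Peg3 (minus strand) and Usp29 (plus strand) 163 bases apart in the GRCm38.p6 build, to which mm10 corresponds. The stretch between the deposited ends of the Peg3 and Usp29 genes, chr7:6730432-6730577, is shown on the plus strand because it is the upstream sequence of both genes with no count in Gmppb-KO, with each of its 5 CpG sites, the bases that imprint methylation acts on, in capitals. The upstream stretch of Zim1, chr7:6696451-6696682 on the minus strand, is shown for contrast as that of the neighbour that still had counts, and holds 12 CpG sites. Both stop where the transcribed part begins.
Peg3 and Usp29, shared: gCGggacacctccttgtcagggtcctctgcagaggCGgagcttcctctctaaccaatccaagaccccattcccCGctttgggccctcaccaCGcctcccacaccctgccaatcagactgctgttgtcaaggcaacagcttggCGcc
Zim1: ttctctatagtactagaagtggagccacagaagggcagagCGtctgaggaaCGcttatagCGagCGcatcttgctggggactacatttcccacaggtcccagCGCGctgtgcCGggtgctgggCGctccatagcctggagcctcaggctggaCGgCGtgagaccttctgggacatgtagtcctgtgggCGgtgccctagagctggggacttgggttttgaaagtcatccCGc

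Peg3 (ENSMUSG00000002265, chr7:6703892-6730431, minus strand) encodes a zinc finger transcription factor that represses other genes and is used as a marker of muscle and other stem cells. Wild-type replicates 1, 2 and 3 held 413, 171 and 501 counts, or 24.5, 11.5 and 29.3 CPM, and 0 counts in each Gmppb-KO library. The groups did not overlap, wild-type replicate 2 was the lowest of its group, and the wild-type mean was 21.8 CPM ± 9.19 (SD, n = 3). Against 3 counts over the Gmppb-KO group, the level was at least 426-fold lower.

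Usp29 (ENSMUSG00000051527, chr7:6730578-6967219, plus strand) encodes a ubiquitin-specific peptidase. Its counts were 29, 21 and 50 in wild-type, or 1.72, 1.42 and 2.92 CPM, and 0 in each Gmppb-KO library. The order of the wild-type libraries matched that of Peg3, with replicate 3 the highest and replicate 2 the lowest. Zim1 had this order too. Over all tested genes, wild-type replicate 3 was the highest of its group in 45.5% and wild-type replicate 2 the lowest in 42.5%. The level was at least 39.3-fold lower in Gmppb-KO.

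Zim1 (ENSMUSG00000002266, chr7:6671269-6696450, minus strand), a zinc finger protein gene, gave counts of 8, 3 and 15 in the wild-type libraries and of 14, 10 and 86 in the Gmppb-KO libraries. In CPM these were 0.475, 0.202 and 0.877 against 0.761, 0.560 and 4.05. The groups overlapped, and Gmppb-KO replicate 3 stood well above the other 5 libraries. The log2 fold change of 1.77 ± 0.87 (SE) was 0.29 without that library.

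Genes around the Peg3 domain that are on neither of the imprinted lists used here gave counts in both groups. Within 500 kb of a member, 8 such genes were tested, and their log2 fold changes ranged from -0.34 for Zfp667 to 0.52 for Zfp78. None was called by edgeR, DESeq2 or limma voom, 0 had an unadjusted p under 0.05 by edgeR, and 0 had groups that did not overlap. Over all tested genes, 2572 of 12786 had such a p. Groups did not overlap in 13% with Gmppb-KO lower and in 13.1% with Gmppb-KO higher. Apart from Clcn4, a chloride channel gene, the 8 neighbours are all zinc finger genes.

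The Prader-Willi/Angelman domain, further along chromosome 7, takes its name from 2 human disorders that follow loss of its paternal or of its maternal expression. Its control region, at the promoter that Snrpn shares with Snurf, is methylated in the egg. Of 5 paternally expressed members here, Snrpn, Ndn and Peg12 were detected in all wild-type libraries and in 0 Gmppb-KO libraries. Mkrn3 was close to the detection limit in both groups, and Magel2 had 0 counts in all 6 libraries. Ube3a, which is imprinted in neurons, had counts in every library.

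Upstream stretches of Snrpn, chr7:60005200-60005449, and Peg12, chr7:62464511-62464760, both on the minus strand, are shown because they belong to members with no count in Gmppb-KO, again with CpG sites in capitals. RefSeq has 4 start windows for Snrpn, and the one shown is the one it shares with Snurf, 135020 bases inside the deposited outer start of the gene. The stretch for Snrpn holds 3 CpG sites and the stretch for Peg12 holds 8.
Snrpn: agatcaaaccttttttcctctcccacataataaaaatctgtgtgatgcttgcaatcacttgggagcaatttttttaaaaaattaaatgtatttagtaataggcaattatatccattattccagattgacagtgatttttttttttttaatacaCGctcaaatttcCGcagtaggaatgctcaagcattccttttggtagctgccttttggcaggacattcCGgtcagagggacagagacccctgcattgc
Peg12: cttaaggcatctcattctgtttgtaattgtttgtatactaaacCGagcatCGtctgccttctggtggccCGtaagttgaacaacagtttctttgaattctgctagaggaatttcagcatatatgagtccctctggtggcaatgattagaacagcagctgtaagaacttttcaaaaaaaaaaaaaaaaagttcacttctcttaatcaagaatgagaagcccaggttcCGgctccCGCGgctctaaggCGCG

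Snrpn (ENSMUSG00000102252, chr7:59982495-60140219, minus strand) encodes a core protein of small nuclear ribonucleoproteins, the particles that splice pre-mRNA. Counts were 110, 118 and 95 in wild-type, or 6.53, 7.95 and 5.55 CPM, and 0 in each Gmppb-KO library. The wild-type mean was 6.68 CPM ± 1.21 (SD, n = 3), and the level was at least 127-fold lower in Gmppb-KO. The closely related Snrpb, an unlinked gene with a highly similar protein product, was at 604, 761 and 489 CPM in wild-type and at 507, 502 and 281 CPM in Gmppb-KO. Its groups overlapped, at a log2 fold change of -0.52 ± 0.30 (SE). No source used here gives how reads that fit both genes were counted. The row for Snurf, which shares its transcript with Snrpn, held 0 counts in all 6 libraries.

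Ndn (ENSMUSG00000033585, chr7:62346569-62350262, plus strand) encodes necdin, a MAGE family protein that restrains cell growth and promotes the differentiation of neurons and muscle. Counts were 111, 96 and 115 in wild-type and 0 in each Gmppb-KO library. In CPM the wild-type values were 6.59, 6.47 and 6.72, with a mean of 6.59 ± 0.126 (SD, n = 3). This was the narrowest wild-type spread of any tested member, with a highest value 1.04 times the lowest. The level was at least 126.5-fold lower in Gmppb-KO.

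Peg12 (ENSMUSG00000070526, chr7:62461871-62464510, minus strand) encodes a protein of the Frat family, which binds the kinase Gsk3 in Wnt signalling. Its wild-type counts were 26, 23 and 13, or 1.54, 1.55 and 0.760 CPM, and 0 in each Gmppb-KO library. The level was at least 24.4-fold lower. Of the 5 members at 0, this one had the fewest counts, and edgeR no longer called it without wild-type replicate 1.

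Mkrn3, a ubiquitin ligase gene that restrains the onset of puberty, gave counts of 5, 1 and 6 in the wild-type libraries and of 3, 2 and 3 in the Gmppb-KO libraries. The ratio of pooled levels was 0.566, with an exact 95% interval of 0.201 to 1.5, and the gene was too low to test. It was the sole paternally expressed member of this domain with counts in Gmppb-KO cells, at no more than 3 in a library. Magel2, another MAGE family gene, gave no count in either group, so no change could be detected.

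Ube3a (ENSMUSG00000025326, chr7:59228750-59311536, plus strand) encodes the ubiquitin ligase whose maternal loss causes Angelman syndrome. It was at 9.91, 6.34 and 5.03 CPM in wild-type and at 3.80, 14.0 and 34.2 CPM in Gmppb-KO. The Gmppb-KO values spread around the wild-type ones, with replicate 1 below and replicates 2 and 3 above all of them. The log2 fold change was 1.29 ± 0.68 (SE) and 0.28 without Gmppb-KO replicate 3. Snhg14, the paternally expressed long RNA that runs antisense through Ube3a, gave counts of 5, 5 and 1 in the wild-type libraries and of 0, 0 and 4 in the Gmppb-KO libraries, a ratio of 0.309 with an exact 95% interval of 0.0717 to 1.04. Their annotated spans overlap over 3613 bases, and the strand setting of the counting is not given, so reads there cannot be told apart.

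Between the silent members, other transcribed rows kept their counts. Gm7367, a processed pseudogene beside the deposited outer start of Snrpn, had a log2 fold change of -0.05 ± 0.26 (SE). Gm10297, a processed pseudogene between Snrpn and Ndn, gave counts of 111, 116 and 80 in the wild-type libraries and of 153, 123 and 186 in the Gmppb-KO libraries, and the groups overlapped in CPM. A processed pseudogene can share reads with its parent gene, so counts on these rows are uncertain.

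**Figure D2:**
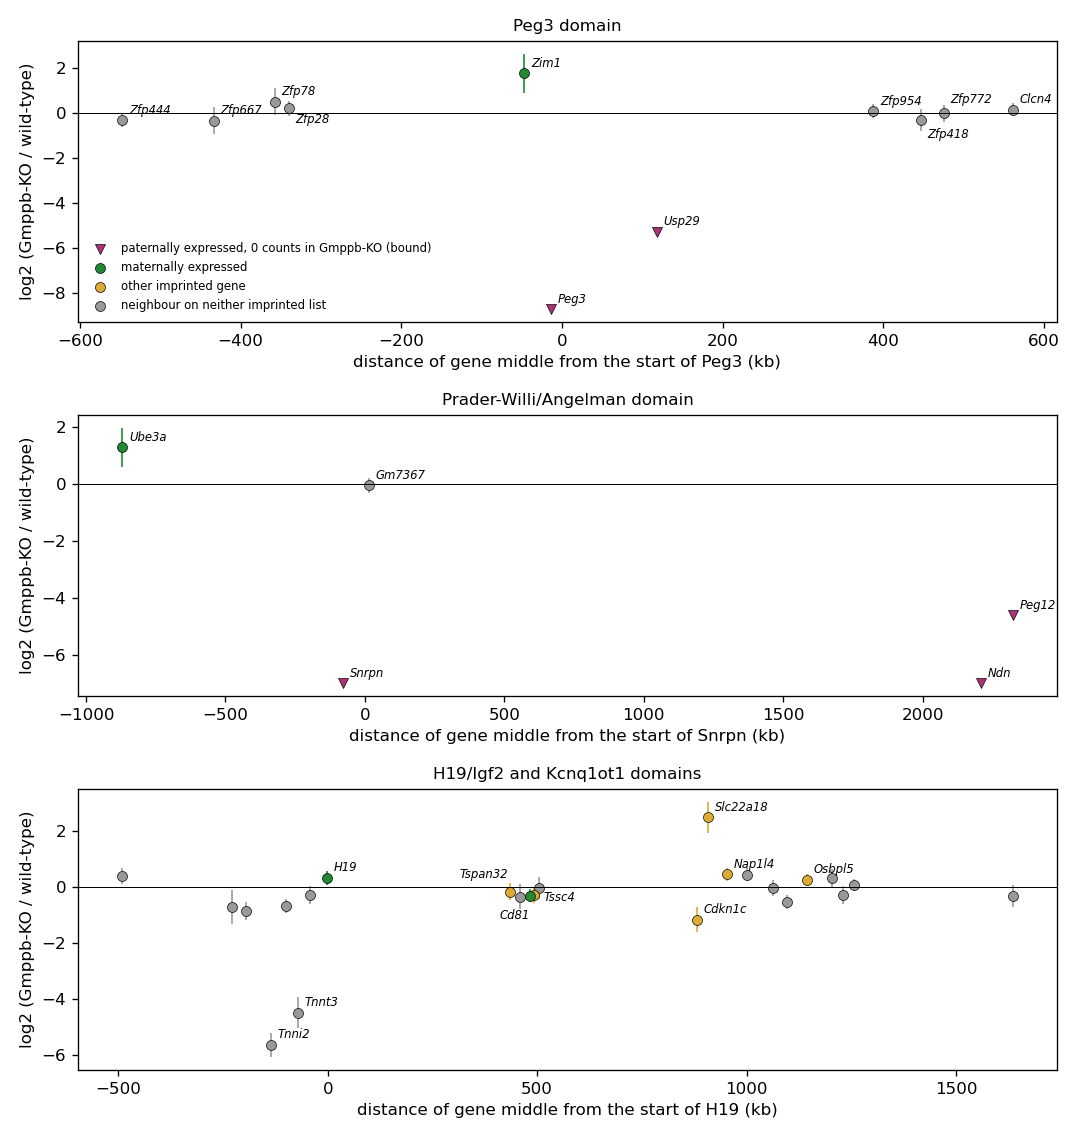
Log2 fold change of Gmppb-KO over wild-type (vertical axis, bars are SE) of tested genes against the distance of the gene's middle from the deposited start of Peg3, Snrpn or H19 in kb, for members, other imprinted genes and neighbours on neither imprinted list; triangles are bounds for genes with 0 counts in Gmppb-KO. In the upper panel the 8 neighbours lie between -0.34 and 0.52 around the bounds for Peg3 and Usp29, and in the lower panel Tnni2 at -5.63 and Tnnt3 at -4.48 lie lowest.

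A gene with clear wild-type counts and none in Gmppb-KO was rare in the table. With a minimum of 50 counts over the wild-type libraries, a limit chosen after the data were seen, 20 of 11847 genes, or 0.169%, had 0 counts in every Gmppb-KO library. The 5 imprinted members are among these 20, and the members were listed with that known. Ranked by wild-type counts, Peg3 with 1085 counts, Snrpn with 323 and Ndn with 322 were the 3 highest of the 20. Chromosome 7 held 8 of the 20, or 0.922% of its 868 genes with that many counts, and no other chromosome held more than 2. Of these 8, 5 are the members listed with their values known, so nothing is read from the share of chromosome 7. The next highest shares were 0.338% on chromosome 10 and 0.302% on chromosome 8. The other chromosome 7 genes were Eid2, an inhibitor of differentiation, Nox4, an NADPH oxidase, and Ckm, the muscle creatine kinase.

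Chromosome 7 as a whole is described here by its tested genes, and a shift of the whole chromosome was not tested. The median log2 fold change of its 932 tested genes was -0.02, against 0.11 over all tested genes, and 7.30% of them were called in either direction, against 5.59% overall. Among the 20 chromosomes with at least 100 tested genes, it ranked 3 from the lowest, in a range of medians from -0.31 to 0.40. Of its 13 members, the 8 paternally expressed ones included 6 with counts, 5 of them tested and all 5 at 0 in Gmppb-KO. These 5 passed the filter on low counts through their wild-type counts alone and were listed with their values known, so nothing is read from that. Mkrn3, with counts of 3, 2 and 3 in the Gmppb-KO libraries, was too low to test. The 5 maternally expressed members all had counts, and 4 were tested with 0 called and all 4 overlapping between groups.

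**Figure D3:**
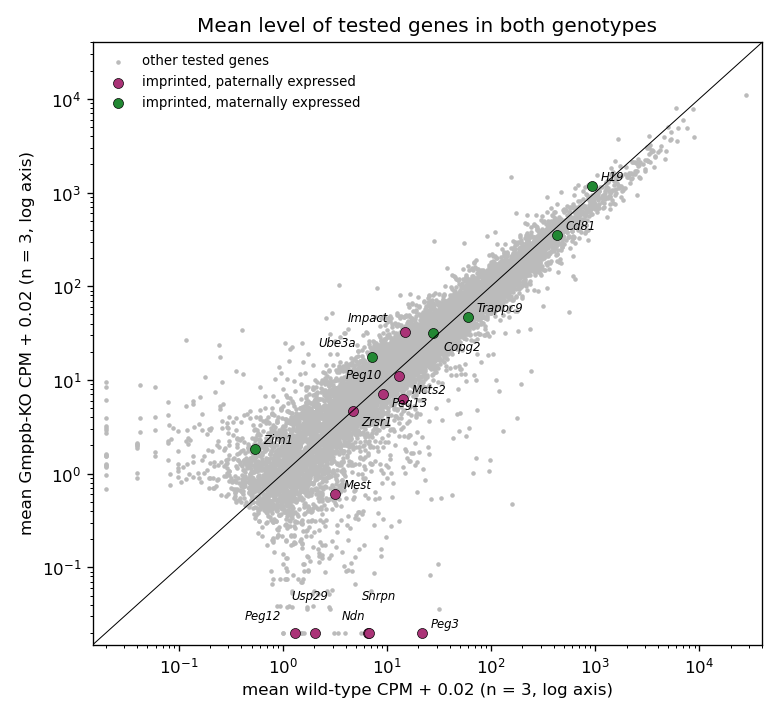
Mean level of each tested gene in wild-type (horizontal) and Gmppb-KO (vertical) libraries, in CPM plus 0.02 on log axes, with n = 3 per group and the diagonal marking equal levels. Peg3, Snrpn, Ndn, Usp29 and Peg12 lie on the lower edge, which stands for 0 counts in Gmppb-KO, while H19 and Cd81 lie near the diagonal at the top.

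The distal end of chromosome 7 holds the H19/Igf2 and Kcnq1ot1 domains. H19, a long noncoding RNA that is the host of a microRNA and is made in large amounts in developing muscle, was the most abundant member in both groups, also per kb of gene length. H19 (chr7:142575529-142578143, minus strand) was at 914, 1014 and 864 CPM in wild-type and at 1246, 1344 and 910.0 CPM in Gmppb-KO. Gmppb-KO replicate 3 fell within the wild-type range and the other 2 lay above it. The log2 fold change was 0.33 ± 0.24 (SE). Igf2, the paternally expressed growth factor gene of the same domain, had 0 counts in all 6 libraries.

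Beside H19, 9 genes on neither imprinted list were tested and 2 were called lower by edgeR, against 3.27% of all tested genes. Tnni2 and Tnnt3, which encode fast skeletal troponin subunits, had log2 fold changes of -5.63 ± 0.44 (SE, adjusted p = 0.000371 by edgeR) and -4.48 ± 0.56 (SE, adjusted p = 0.00294 by edgeR). These 2 genes lie within 500 kb of H19, whose own level overlapped between groups.

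In the Kcnq1ot1 domain, Cd81, a tetraspanin gene that is imprinted in placenta, was at 446, 510 and 346 CPM in wild-type and at 368, 392 and 288 CPM in Gmppb-KO. The groups overlapped, at a log2 fold change of -0.31 ± 0.23 (SE). Phlda2, a maternally expressed growth suppressor, had 2 counts in wild-type replicate 1 and 0 elsewhere. The long noncoding RNA Kcnq1ot1, which silences its neighbours on the paternal copy, had 0 counts in all 6 libraries. The 9 tested neighbours on neither imprinted list ranged from -0.53 to 0.44 in log2 fold change, with 0 called by edgeR, DESeq2 or limma voom. By edgeR 0 had an unadjusted p under 0.05, against 2572 of all 12786 tested genes.

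Of the 14 paternally expressed members on other chromosomes, 10 had counts and 6 were tested. All 6 tested had counts in both groups, and 0 were called by edgeR. The other 8 had 0 or few counts in both groups, so a loss in Gmppb-KO could not be detected in them. Mcts2 and Mest had groups that did not overlap, both lower in Gmppb-KO, which over all tested genes held for 13% in that direction. As these members were chosen on the same values, nothing is read from that count.

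Mcts2 (chr2:152687035-152687946, plus strand), a retrogene copy of Mcts1, the gene of a translation re-initiation factor, was at 17.4, 17.3 and 8.24 CPM in wild-type and at 6.25, 7.05 and 5.46 CPM in Gmppb-KO. Wild-type replicate 3 lay just above the Gmppb-KO libraries and the other 2 were more than 2-fold above them. The mean was 14.3 ± 5.28 (SD, n = 3) against 6.25 ± 0.793 CPM, a log2 fold change of -1.20 ± 0.35 (SE), or 2.29-fold lower. All of its 912 bases lie inside H13 on the same strand, and H13 itself, a signal peptide peptidase gene, had a log2 fold change of -0.17. Its unlinked parent copy Mcts1 was at a log2 fold change of 0.29. Of 14 neighbours of Mcts2, 3 were called by edgeR, against 5.59% of all tested genes in either direction. They were Rem1 at -1.53, Mylk2, the skeletal muscle myosin light chain kinase, at -2.27 and Trib3 at 1.49 in log2 fold change.

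Mest (chr6:30723547-30748465, plus strand), a hydrolase fold protein gene of mesoderm and growing fat, was at 2.79, 1.35 and 5.38 CPM in wild-type and at 0.598, 0.224 and 0.942 CPM in Gmppb-KO. The lowest wild-type library, replicate 2, was above the highest Gmppb-KO library. The log2 fold change was -2.41 ± 0.67 (SE), or 5.30-fold lower, and counts were low, between 4 and 20 in the Gmppb-KO libraries. Its maternally expressed neighbour Copg2, a coat protein subunit of Golgi vesicles, was at 20.4, 22.4 and 40.2 CPM in wild-type and at 33.2, 31.1 and 31.8 CPM in Gmppb-KO. The groups overlapped, at 0.21 ± 0.29 (SE), with the Gmppb-KO libraries all inside the wild-type range. Mest and Copg2 run in opposite directions and overlap over 912 bases.

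The remaining tested paternal members overlapped between groups. Peg10, a retrotransposon-derived gene that is required for the placenta, was at 11.9, 12.4 and 14.4 CPM in wild-type and at 7.34, 8.11 and 17.9 CPM in Gmppb-KO. Gmppb-KO replicate 3 was above and the other 2 below every wild-type library, for a log2 fold change of -0.21 ± 0.38 (SE). All 4 tested neighbours of Peg10 on neither imprinted list were higher in Gmppb-KO with no overlap, which held for 13.1% of all tested genes. Their log2 fold changes ranged from 1.12 to 2.10. Yet 0 were called by edgeR, 0 by limma voom and 3 by DESeq2, which called 3.33% of all its tested genes higher. By edgeR 4 had an unadjusted p under 0.05, against 2572 of all 12786 tested genes. The 4 neighbours include the collagen gene Col1a2, one of the fibroblast markers.

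Zrsr1, a retrogene for a splicing factor of the U2AF family, was at 3.50, 3.77 and 6.78 CPM in wild-type and at 3.15, 4.20 and 6.59 CPM in Gmppb-KO. The means differed by far less than the spread, at a log2 fold change of -0.01 ± 0.42 (SE), and its sign turned under library-size scaling, at 0.16. Peg13, a noncoding RNA inside Trappc9, was at 8.84, 5.53 and 13.2 CPM in wild-type and at 6.41, 5.43 and 9.47 CPM in Gmppb-KO. The groups overlapped, and the log2 fold change was -0.37 ± 0.39 (SE). Impact, an inhibitor of the eIF2 kinase Gcn2, was at 18.3, 11.7 and 14.2 CPM in wild-type and at 12.7, 24.1 and 59.9 CPM in Gmppb-KO. Gmppb-KO replicate 1 lay inside the wild-type range and replicate 3 was the highest, and the log2 fold change of 1.13 ± 0.52 (SE) was 0.27 without that library.

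Trappc9, a maternally expressed subunit of a vesicle tethering complex that is imprinted in brain, was at 57.6, 64.0 and 59.9 CPM in wild-type and at 54.5, 48.1 and 37.0 CPM in Gmppb-KO. It was the sole maternally expressed member whose groups did not overlap. The difference was small, at a log2 fold change of -0.38 ± 0.20 (SE), or 1.30-fold lower. Peg13 lies inside Trappc9 on the same strand over 4725 bases. Dennd3, a neighbour on neither imprinted list, was called lower by edgeR at a log2 fold change of -4.04 ± 0.52 (SE, adjusted p = 0.00332 by edgeR).

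Over all 18 clusters, 108 neighbours on neither imprinted list were tested and 7 were called by edgeR, or 6.48%, against 5.59% of all tested genes, with a median log2 fold change of 0.01. Absence from the lists does not make a gene non-imprinted, and some neighbours, such as Pon3 beside Peg10 and Tnfrsf23 near Kcnq1ot1, are reported as imprinted in placenta. Besides the troponin genes, Rem1, Mylk2, Trib3 and Dennd3, the called one was Fuca2, an alpha-fucosidase gene beside Plagl1. It was at 6.17, 5.26 and 7.19 CPM in wild-type and at 31.1, 29.3 and 36.6 CPM in Gmppb-KO, a log2 fold change of 2.38 ± 0.25 (SE, adjusted p = 0.00132 by edgeR), while Plagl1 itself had at most 2 counts in a group.

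A large group of members had no or few counts in these cells. Nap1l5, Magel2, Kcnq1ot1, Rasgrf1, Grb10, Dlk1, Meg3 and Rtl1 had 0 counts in all 6 libraries. They include the 3 members of the Dlk1-Meg3 domain. Dlk1 is a Notch-like inhibitor of fat cell differentiation, Meg3 a maternal noncoding RNA and Rtl1 a retrotransposon-derived gene of placenta and fetal muscle. Grb10 encodes an adaptor that dampens insulin receptor signalling, and Rasgrf1 a Ras exchange factor. Phlda2, Nnat, Plagl1 and Zdbf2 had only 1 or 2 counts in a whole group, and no fold is given for them. Kcnq1ot1, Nap1l5 and Nnat lie inside the spans of Kcnq1, Herc3 and Blcap. How reads in shared spans were counted is not given, so few counts there need not mean no expression. Airn, the noncoding RNA that silences Igf2r on the paternal copy, had 9 counts over the wild-type and 21 over the Gmppb-KO libraries, a ratio of 1.98 with an exact 95% interval of 0.869 to 4.91. Igf2r, transcribed against Airn, was at a log2 fold change of 0.48 ± 0.45 (SE), and its span and that of Airn share 28354 bases.

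Grouped by allele, 11 of 22 paternal members were tested, 5 were called lower and 10 of 11 had a log2 fold change below 0. Leaving out the 5 at 0, the median over the other 6 was -0.29. Of 9 maternal members 6 were tested, 0 were called, 2 had a log2 fold change below 0 and the median was 0.27. Over all tested genes, 3.27% were called lower by edgeR, 5552 of 12786 had a log2 fold change below 0 and the median was 0.11. By germline mark, 16 of 25 members with a maternally methylated control region were tested, and 5 were called lower. Of the 6 with a paternally methylated one, H19 alone was tested. These splits describe how the listed genes are divided and do not extend to imprinted genes at large.

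Among the tested members with counts in both groups, Gmppb-KO replicate 3 held the highest Gmppb-KO value in 7 of 12, or 58.3%, which compares with 45.6% over all tested genes. Ube3a, Impact and Zim1, the 3 members with log2 fold changes above 1, were among these 7. Per kb of gene length, wild-type levels ran from 378 CPM per kb for H19 and 151 for Cd81 down to 0.0641 for Zim1. The 5 members at 0 in Gmppb-KO held ranks 7, 10, 11, 14 and 16 of the 17, from Snrpn at 3.09, Ndn at 1.78 and Peg3 at 1.63 CPM per kb to Peg12 at 0.487 and Usp29 at 0.112.

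A second list held 43 other mouse imprinted genes, of which 28 had counts and 18 were tested. By edgeR 1 was called higher and 0 lower, with a median log2 fold change of 0.22. The called gene, Slc22a18, is a maternally expressed transporter gene of the Kcnq1ot1 domain. It was at 0.475, 1.42 and 0.409 CPM in wild-type and at 5.05, 4.76 and 3.02 CPM in Gmppb-KO. All Gmppb-KO libraries lay above all wild-type ones, with a log2 fold change of 2.48 ± 0.55 (SE, adjusted p = 0.0375 by edgeR). The call was lost without wild-type replicate 1 or 3 and without Gmppb-KO replicate 1 or 2.

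Its neighbour Cdkn1c, the maternally expressed cell cycle inhibitor p57, had the lowest log2 fold change among the 18 tested genes, at -1.17 ± 0.45 (SE), and was not called. The groups did not overlap, with 2.37, 4.72 and 2.05 CPM in wild-type and 1.30, 1.62 and 1.13 CPM in Gmppb-KO. Gab1, an adaptor of growth factor receptors, was at -0.80 ± 0.29 (SE) with no overlap. Gnas, Jade1 and Inpp5f had log2 fold changes of 0.66 ± 0.56, 0.62 ± 0.37 and 0.52 ± 0.31 (SE), with overlapping groups. None of the 18 tested genes was at 0 in all Gmppb-KO libraries. Ins2, an insulin gene of the H19/Igf2 domain on chromosome 7 that is paternally expressed in yolk sac, was too low for the edgeR filter. It had 6, 11 and 2 counts in wild-type and none in Gmppb-KO. That is at least 7.46-fold lower, and DESeq2 called it at an adjusted p of 0.0424.

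Genes that set, keep or read imprints were measured as a list of 26, of which 22 were tested. By edgeR 0 were called, and DESeq2 and limma voom also called 0. An unadjusted p under 0.05 by edgeR was found for 4 of the 22, against 2572 of all 12786 tested genes. The log2 fold change was above 0 in 18 of the 22, against 7234 of the 12786. The medians were 0.34 and 0.11. The maintenance methyltransferase Dnmt1 was at a log2 fold change of 0.13 ± 0.21 (SE), with a mean of 116 CPM ± 21.1 (SD, n = 3) in wild-type and 127 ± 19.6 in Gmppb-KO. Its partner Uhrf1 was at -0.09 ± 0.18, the zinc finger protein gene Zfp57 at 0.01 ± 0.33 and the corepressor gene Trim28 at -0.16 ± 0.22 (SE), all overlapping between groups. RNA levels say nothing of the methylation at the control regions, which was not measured.

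The regulators with the largest log2 fold changes were all led by Gmppb-KO replicate 3. Suz12, a Polycomb subunit, was at 5.92, 20.03 and 67.9 CPM in Gmppb-KO replicates 1, 2 and 3, and between 7.28 and 11.4 CPM in wild-type. Hells, a chromatin remodeller that supports DNA methylation, was at 6.03, 21.3 and 52.2 CPM, against 5.93 to 10.7 CPM in wild-type. In both, replicate 1 lay within or below the wild-type range and replicates 2 and 3 above them. The log2 fold changes were 1.76 ± 0.73 and 1.59 ± 0.66 (SE). Atrx, Rif1, Tet2 and Zfp445 were at 2.14, 1.78, 1.32 and 1.32, with SE between 0.70 and 1.04. Without Gmppb-KO replicate 1, edgeR called 3 of the regulators, Atrx, Hells and Suz12, all higher.

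**Figure D4:**
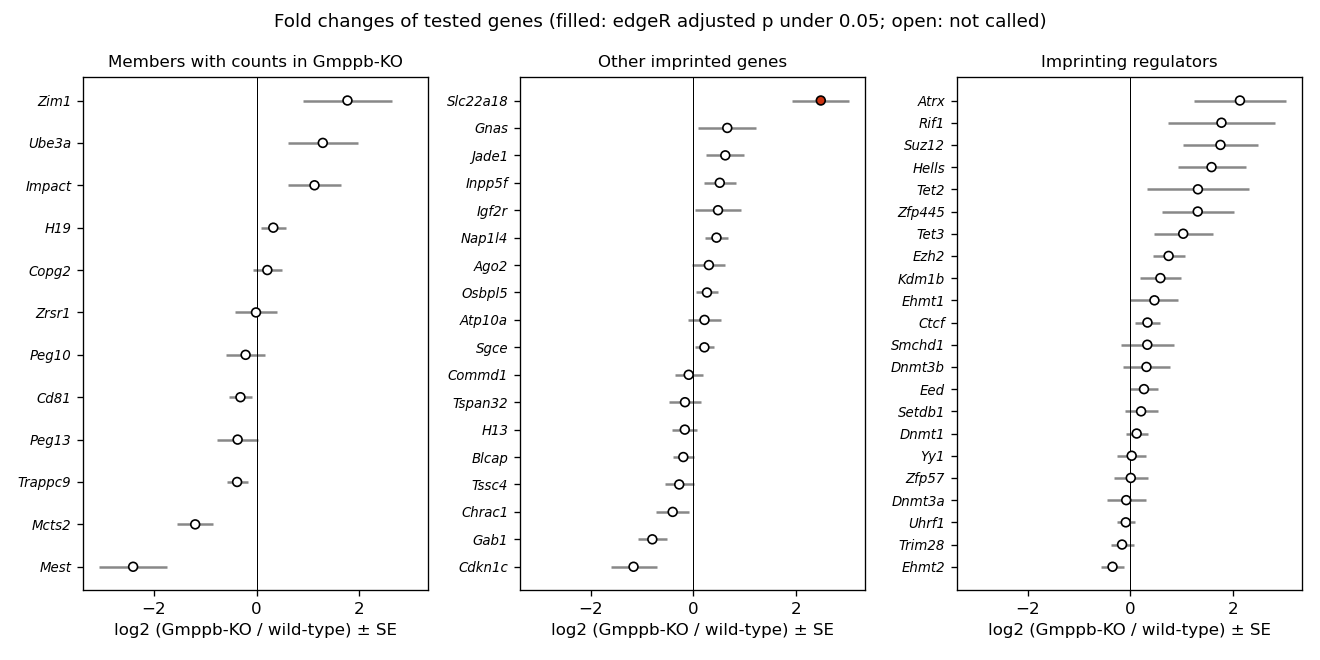
Log2 fold change of Gmppb-KO over wild-type (horizontal axis, bars are SE) for the 12 tested members with counts in Gmppb-KO, the 18 tested genes of the other imprinted list and the 22 tested regulators of imprinting; filled symbols mark an edgeR adjusted p under 0.05. Slc22a18 at 2.48 carries the one filled symbol, Mest at -2.41 is the lowest of the 12 members, and Dnmt1, Uhrf1, Zfp57 and Trim28 lie within 0.16 of 0.

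Of 6 tested related copies outside the clusters, 0 passed the threshold by any of the 3 tools (edgeR, DESeq2, voom), and Copg1 alone had an unadjusted p under 0.05 by edgeR. Such a p was found for 2572 of all 12786 tested genes. Copg1 and Zrsr2, the copies of Copg2 and Zrsr1 that are not imprinted, were at log2 fold changes of 0.63 ± 0.25 and 0.61 ± 0.28 (SE) without overlap. Frat2, related to Peg12, was at 0.10 and Nap1l1, related to Nap1l5, at 0.16. A list of partners whose span overlaps a member held 7 tested genes (Igf2r, Trappc9, Commd1, Herc3, H13, Blcap and Copg2). Of these, 0 were called by these tools and 0 had an unadjusted p under 0.05 by edgeR, with Commd1 around Zrsr1 at -0.09, Herc3 around Nap1l5 at -0.24 and Blcap around Nnat at -0.20 in log2 fold change. Mest and Peg13, which overlap Copg2 and Trappc9, are members and are not in that count.

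RefSeq promoter windows were used for 25 of the 31 members, out of 32851 windows in all. For members only, windows on chromosome 18, where Impact lies, were left out. The median number of CpG sites in a window was 17 for the members and 7 over all windows. Where a gene had several windows, the one nearest its deposited start was used, except for Snrpn, where it was the one shared with Snurf. For members at 0 in Gmppb-KO the windows held 13 CpG sites for Peg3, 17 for Usp29, 12 for Peg12 and 7 for Snrpn, and 52.1% of all windows held at least the 7 of Snrpn. The window of Ndn held 11, but its start lies 1708 bases inside the deposited gene. For 7 tested members with counts in Gmppb-KO a window was used. It held 8 sites for Mest, 10 for Zrsr1, 20 for Zim1, 23 for Cd81, 25 for Mcts2 and for Copg2 and 29 for Ube3a. The start used for Mest lies 9959 bases inside the deposited gene.

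A search on both strands for 4 short motifs, each counted on its own where matches overlap, is given as a description. The letters TGCCGC, the hexamer that Zfp57 reads when methylated, were in the windows of 9 members and in 11.6% of all windows. Of the members at 0 in Gmppb-KO, Snrpn alone held it. Zim1, Mcts2 and Copg2, which had counts in Gmppb-KO, held it too. The hexamer contains a CpG, and member windows held more CpG sites than all windows, so these shares are not a like comparison. AANATGGC, the core letters of a Yy1 site, were in the windows of 2 members, Mkrn3 and Ube3a, and in 6.05% of all windows. GGNGGCAG, core letters of a Ctcf site, were in 4 and in 12.6%, and CAGCTG, an E-box of the kind that Myod1 binds, in 5 and in 16.3%. Of the upstream stretches printed above, Peg12 held 1 CAGCTG and the others held none of the 4 motifs.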

How the data were processed

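RNA of 6 libraries was counted per gene. The deposited counts are whole numbers and were left unscaled, per the file headers. HISAT2 alignment to mm10 and counting with featureCounts of Subread are named in the submitters' processing notes, beside FastQC and DESeq2. Neither annotation release nor strand setting is given in the sources used here; the kit was NEBNext Ultra RNA, per the labels. The deposited table also holds the authors' FPKM, their mean normalized counts per group (a signal), log2 fold changes and p-values, none of which was used here. The gene length in bases of the deposited table was used for levels per kb.

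The members and gene lists were chosen with earlier results of these data known. Counts were fitted with edgeR 4.0.16 (R 4.3.3; TMM scaling, filterByExpr, quasi-likelihood F test with genotype as its sole term, 2-sided, Benjamini-Hochberg adjustment over all 12786 tested genes). The median log2 fold change was 0.11, and changes are relative to the TMM scale. CPM values use the TMM-scaled library size. The 201 loci with no gene name, 0.0699% to 0.195% of counts, stayed out of library sizes and tests. A fold against a group at 0 is a bound against 3 counts over that group; ratios of low counts carry an exact binomial 95% interval. Neighbours are tested genes within 500 kb of a member that are on neither imprinted list (members and 43 others). Members averaging 1 CPM or more in a group get values per library. Of the other lists, genes called and up to 6 with the largest absolute log2 fold change are named, with others picked by role after their values were seen; of the neighbours, those called, up to 4 per cluster. Alternatives were DESeq2 1.42.0, voom of limma 3.58.1, 3 scalings, 2 filters on low counts, a replicate block and leaving out each library. The steps were tested on simulated counts.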

Additional observations from a re-analysis of the deposited data

How the results depend on the processing

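The counts of 5 members called lower and 0 called higher stayed within 4 to 7 and at 0 over the 14 alternatives; the added calls were Mcts2 and Mest, both called by DESeq2 and with the replicate block, Mest also with no filter on low counts and Mcts2 also without wild-type replicate 3. Peg3, Usp29, Ndn and Snrpn were called in all 14, and Peg12 in 12 of the 13 in which it was tested. The sign for Zrsr1 turned with library-size scaling, at 0.16, and ranged from -0.40 to 0.27 as libraries were left out; the cause was not tested. All genes called numbered 715, but 1295 by DESeq2, 1618 with the replicate block, and 331 to 749 with 1 library left out. Neighbours called numbered 7, but 16 by DESeq2 and 15 with the block. Other imprinted genes called numbered 1, but 2 by DESeq2, where Ins2 with 19 wild-type and 0 Gmppb-KO counts was added, and 0 to 2 with 1 library left out, where Gab1 was added without Gmppb-KO replicate 3. Regulators called numbered 0, and 0 to 3 with 1 library left out. Same-numbered libraries had correlations of deviations of -0.18, 0.51 and 0.42, which do not settle whether the numbers pair the samples. The main fit did not pair them, and the replicate block is the alternative that does. The median log2 fold change of all tested genes moved from -0.02 without Gmppb-KO replicate 3 to 0.27 with library-size scaling, and chromosome 7 minus all genes from -0.185 to 0.0104. Members with few counts (Mkrn3, Airn, Zim1 in wild-type, and 12 with 0 to 2 in a group) cannot show moderate changes at this depth.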
